A study of Mus musculus with 30 samples.

Results

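C2C12 is a mouse myoblast line that forms multinucleated muscle fibres when growth factors are withdrawn, and that turns toward the bone-forming osteoblast lineage when bone morphogenetic protein 2 (BMP2) is added. MicroRNA miR-378 is a small regulatory RNA encoded in an intron of *Ppargc1b*, a coactivator of mitochondrial genes. The data described here are the 6 of 30 microarrays on which a C2C12 line that overexpresses the miR-378 precursor (C2C12-pMirn378, 3 arrays) and a line with the empty parent vector (C2C12-pMirn0, 3 arrays) were both profiled after 3 days (d3) with 300 ng/ml BMP2. They were chosen by cell line, day and treatment alone, and the question the comparison addresses is how the miR-378 precursor changes gene expression early in BMP2-induced osteogenic differentiation. Both lines were made by transducing C2C12 cells with a lentivector that also carries the green fluorescent marker copGFP, and by sorting the fluorescent cells, so that the controls share the vector and the sort. The array labels and the study's methods give the precursor to pMirn378 and are followed here, whereas the series' design sentence, read literally, lists the constructs in the opposite order; under that reading every sign below would be turned. Each line is therefore 1 sorted pool, and a difference between the lines holds any difference between the pools along with that of the insert. The other 24 arrays cover both lines at d0 and, with or without BMP2, at d3 and d6, and those at d3 without BMP2 and at d6 with BMP2 serve below as comparisons. The 3 arrays of a group come from triplicate experiments, and p-values measure only the spread between such samples.

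Every array is an Affymetrix Mouse Genome 430 2.0 GeneChip, on which a probe set, a group of short probes for 1 transcript, gives 1 intensity. The deposited intensities were on a linear scale, and log2 ratios below are those of C2C12-pMirn378 over C2C12-pMirn0, with the standard error (SE) of the fit. Median intensities of the 6 arrays lay between 72.8 and 81.7, and the median of all values of the series, 76.5, is the dim limit used below. The arrays' log2 values correlated at 0.970 to 0.991 with each other over the 22100 probe sets with a mean over all 30 arrays at or above that limit. A probe set was called dim where the means of both lines at d3 with BMP2 were under it. The standard deviation between the replicates of these groups had a median of 0.13 on the log2 scale for probe sets with a mean over the 6 arrays above the limit and 0.70 for those below it, so that the precision of a value depends on its level. Of the called probe sets described below, 76 of the higher and 107 of the lower had the mean of the lower line under the limit, 22 and 33 of them with a log2 ratio beyond 2 in size. Such a ratio sets a signal against background, so that its sign was tested but its size is no measured fold.

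In C2C12 cells, withdrawal from the cell cycle precedes fusion, and it is accompanied by loss of the transcripts for mitosis and by induction of myogenin and the contractile proteins. BMP2 signals through Smad proteins, holds back the muscle program and induces Sp7 (osterix), the vitamin D receptor, alkaline phosphatase and other products of the osteoblast. The labelled cell type was checked against defining markers. The muscle markers were above the dim limit in both lines at d3 with BMP2. Among the brightest was *Acta1* (skeletal actin), at 10160.1 ± 588 (SD, n = 3) in C2C12-pMirn378 cells and 9567 ± 934 (SD, n = 3) in C2C12-pMirn0 cells, and the dimmest was *Ckm* (muscle creatine kinase), at 195 ± 25.5 in C2C12-pMirn378 cells and 113 ± 8.45 in C2C12-pMirn0 cells (SD, n = 3 each). The osteoblast markers *Sp7*, *Alpl*, *Pth1r* and *Col1a1* were above the dim limit in both. The late osteoblast gene *Ibsp* was dim in both lines. *Acan*, *Col10a1* and *Comp* of cartilage, *Adipoq* of fat, *Myh11* of smooth muscle, *Pecam1*, *Cdh5*, *Kdr* and *Tek* of endothelium and *Ptprc*, *Cd68* and *Itgam* of blood cells were dim in both lines as well. Not dim were *Sox9*, *Col2a1* and *Col9a1* of cartilage, *Pparg*, *Cebpa* and *Fabp4* of fat, *Acta2*, *Tagln* and *Cnn1* of smooth muscle and *Csf1r* of blood cells. Most measured markers of fat and of smooth muscle were thus above the limit. Of the 3 probe sets of the macrophage receptor *Csf1r* 1 was higher in C2C12-pMirn378 cells (log2 ratio 1.45 ± 0.16, adjusted p = 1.7e-06), and the part of other cell types in the results was not tested. The arrays do not measure mature miR-378, so that the overexpression itself was not checked on them. By PCR, the study reports mature miR-378 as higher in C2C12-pMirn378 cells at d0, d3 and d6. The reported fold was largest at d0 and, at d3, larger with BMP2 than without. The host gene *Ppargc1b* had 157, 136 and 111 in C2C12-pMirn378 cells, against 203, 228 and 141 in C2C12-pMirn0 cells. Its 2 groups overlapped, and the difference did not pass the test (log2 ratio -0.49 ± 0.13, adjusted p = 0.019).

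At d3 with BMP2, the overexpressing line had 729 of 45037 probe sets higher and 660 lower than the control line (limma over all 30 arrays, Benjamini-Hochberg adjusted p under 0.005 and log2 ratio past 0.6), or 1.62% and 1.47% of those tested. They belonged to 521 and 451 named genes. Among them, 343 of the higher and 255 of the lower probe sets differed by over 1 on the log2 scale, and 57 and 45 by over 2. The calls rest on the spread shared by all 30 arrays: limma on the 6 arrays alone called 0 probe sets at the same thresholds (8321 had an unadjusted p under 0.05, and the smallest adjusted p was 0.0072), and 599 higher and 433 lower once only the 22100 probe sets at or above the limit over all 30 arrays were tested. All 729 higher and 659 of the 660 lower probe sets had no overlap between the lines on the 3 arrays each. For counts by gene, the brightest probe set over the series stood for each of 18193 genes, and by that measure 456 genes (2.51%) were higher and 341 (1.87%) lower, while 17.2% of all genes had every C2C12-pMirn378 array above every C2C12-pMirn0 array and 16.2% had every one below.

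**Figure D1:**
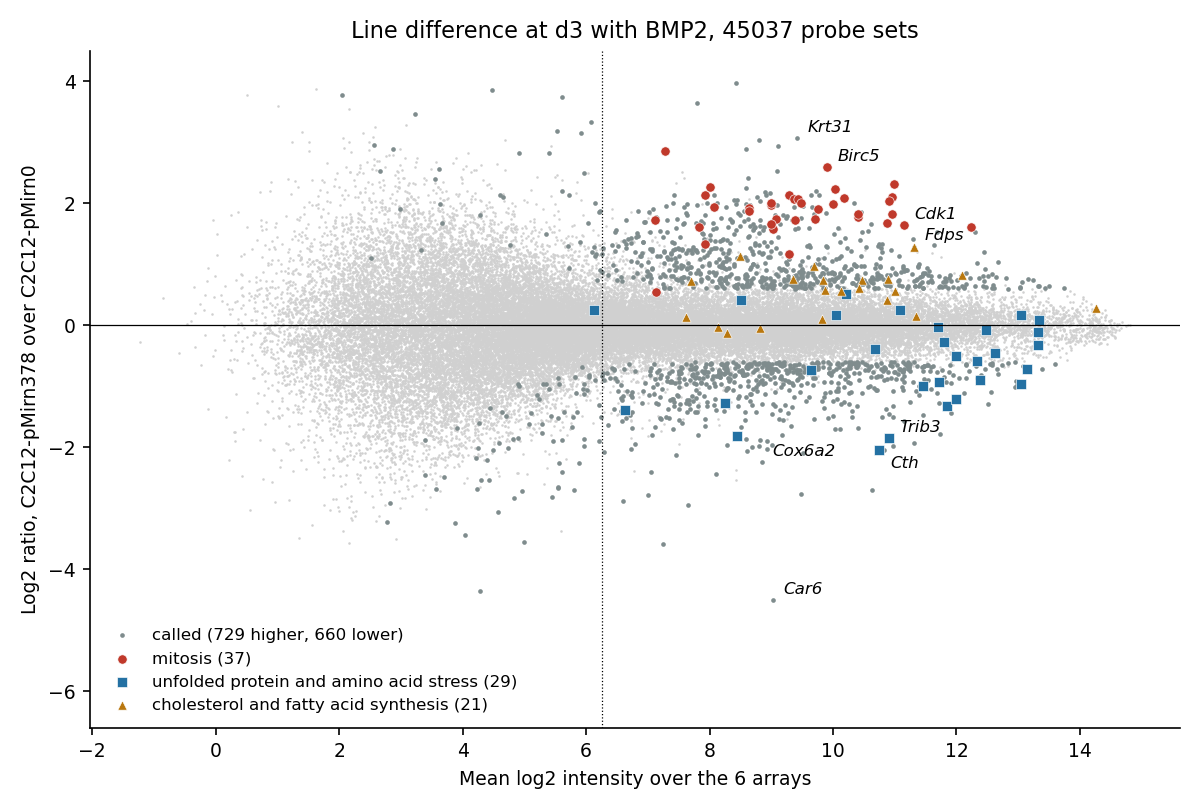
Each of the 45037 probe sets is a point, with the mean log2 intensity over the 6 arrays on the horizontal axis and the log2 ratio of C2C12-pMirn378 over C2C12-pMirn0 on the vertical axis; the dotted line marks the dim limit. Red circles are the 37 mitosis genes, which lie together between 0.55 and 2.85, blue squares the 29 genes of unfolded protein and amino acid stress and orange triangles the 21 genes of cholesterol and fatty acid synthesis.

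The most uniform difference was in the genes of mitosis. Of 37 measured mitosis genes, 36 were higher in C2C12-pMirn378 cells and none lower, with a median log2 ratio of 1.91, against -0.01 over all genes. The list held the kinases, cyclins, spindle motors and kinetochore proteins with which a cell condenses, aligns and separates its chromosomes. Cyclin-dependent kinase 1 (*Cdk1*), the kinase that starts mitosis, had 4015, 4041 and 3969 in C2C12-pMirn378 cells, against 1212, 1278 and 1359 in C2C12-pMirn0 cells. *Top2a*, which untangles sister chromosomes, had 3883, 3875 and 3909 in C2C12-pMirn378 cells, against 888, 953 and 1010.0 in C2C12-pMirn0 cells. *Cdc20*, which activates the destruction of cyclins at anaphase, had 3996, 4212 and 4177 in C2C12-pMirn378 cells, against 873, 951 and 1071 in C2C12-pMirn0 cells. In each of these 3 genes every C2C12-pMirn378 value stood far above every C2C12-pMirn0 value, and the replicates of 1 line lay close together. Their log2 ratios were 1.65 ± 0.09 (SE) for *Cdk1*, 2.03 ± 0.09 for *Top2a* and 2.10 ± 0.10 for *Cdc20*, and the smallest adjusted p of the list was that of the survivin gene *Birc5*, a subunit of the chromosomal passenger complex (log2 ratio 2.60 ± 0.11, adjusted p = 2.7e-12). Cyclin B2 (*Ccnb2*) had a log2 ratio of 1.91 ± 0.13, the proliferation marker *Mki67* 2.23 ± 0.13 and the ubiquitin carrier *Ube2c* 2.32 ± 0.15. *Ndc80*, a kinetochore protein, had the largest ratio, 2.85 ± 0.61, on low values, with 378.2, 441 and 429.8 in C2C12-pMirn378 cells, against 95.8, 82.8 and 24.0 in C2C12-pMirn0 cells. The exception was *Foxm1*, a transcription factor of mitotic genes, whose brightest probe set had 157, 155 and 202 in C2C12-pMirn378 cells, against 89.5, 145 and 122 in C2C12-pMirn0 cells (log2 ratio 0.55 ± 0.31, adjusted p = 0.34). A dimmer *Foxm1* probe set was higher (log2 ratio 3.18 ± 0.61, adjusted p = 0.00085), and it was the only called one of 4. As the arrays measured RNA of whole cultures, more dividing cells and more of these transcripts per cell cannot be told apart.

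At d0, when the cells were still growing, the mean log2 level of the mitosis genes differed between the lines by 0.02. Relative to C2C12-pMirn0 at d0, that mean was -1.21, -1.12 and -1.08 on the 3 C2C12-pMirn378 arrays at d3 with BMP2, against -3.05, -3.06 and -2.93 on the C2C12-pMirn0 arrays. Both lines thus had less of these transcripts at d3 than at d0, and the C2C12-pMirn378 cells retained more. Without BMP2 at d3 the same mean was -2.48, -2.77 and -2.72 in C2C12-pMirn378 cells, against -3.60, -3.69 and -3.52 in C2C12-pMirn0 cells, so that the C2C12-pMirn378 arrays were again above the others. At d6 with BMP2 it was -4.09, -4.10 and -4.13 in C2C12-pMirn378 cells, against -3.92, -3.85 and -4.02 in C2C12-pMirn0 cells, and here the C2C12-pMirn378 arrays were slightly below. By gene, 28 of the 37 were higher in C2C12-pMirn378 at d3 without BMP2 (0.418% of all genes were higher and 0.302% lower there), with a median log2 ratio of 0.93. At d6 with BMP2 none was higher and 1 (*Kif23*, a motor of the midbody) lower, with a median of -0.10, while 1.54% of all genes were higher and 1.31% lower.

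**Figure D2:**
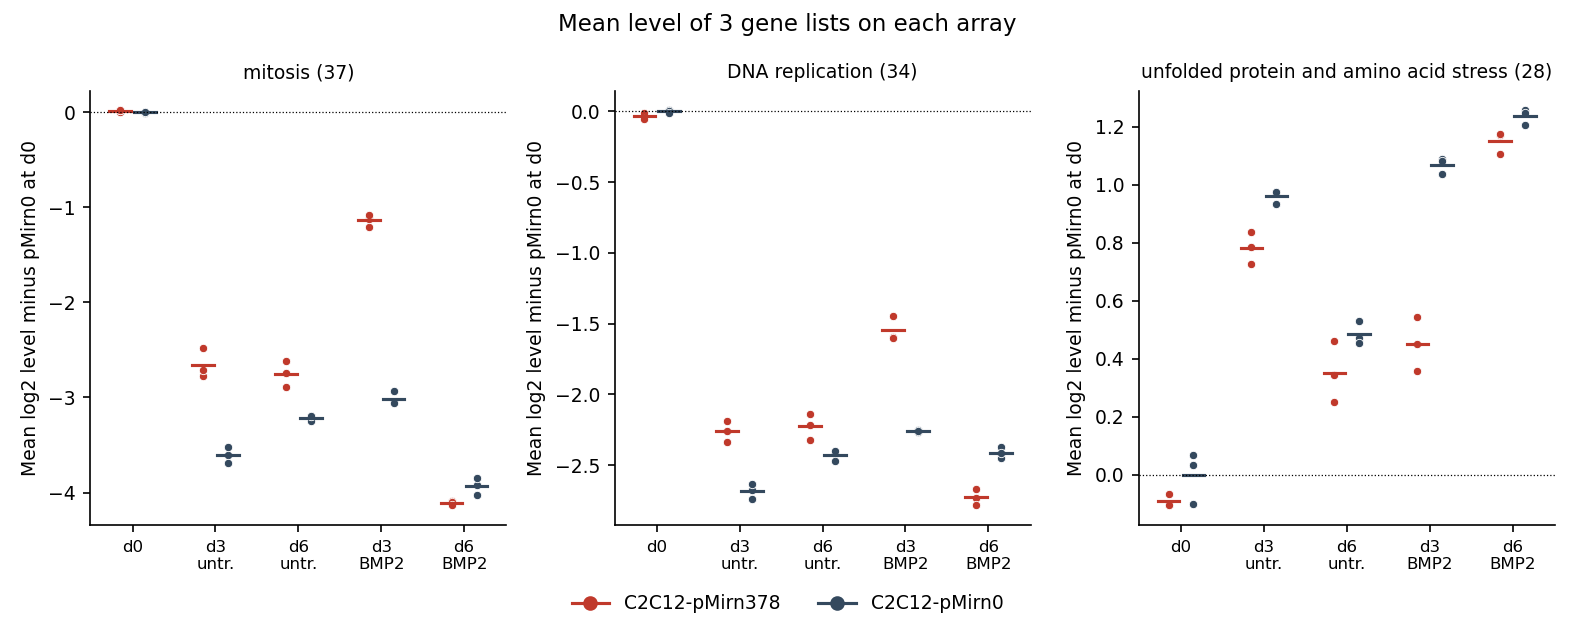
Points are arrays and lines are group means of the mean log2 level of 37 mitosis, 34 DNA replication and 28 stress genes above the median level, set to 0 at the mean of C2C12-pMirn0 at d0; C2C12-pMirn378 stands left of C2C12-pMirn0 in each pair. The 3 C2C12-pMirn378 arrays at d3 with BMP2 lie between -1.21 and -1.08 for mitosis, against -3.06 to -2.93 for C2C12-pMirn0.

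Promoters of mitotic genes are known for CCAAT boxes, bound by the factor NF-Y, and for the sequence TTTGAA near the start site, the cell cycle genes homology region through which the DREAM complex can repress them. In the 250 bases before the start, on either strand, 24 of 31 mitosis genes found in the RefSeq promoter table (77.4%) held CCAAT and 11 of 31 (35.5%) held TTTGAA, against 37.5% and 18.3% of all 27025 genes in that table. A high share of CCAAT is not particular to this list, as 13 of 16 genes of cholesterol and fatty acid synthesis (81.2%), 16 of 24 of the stress list (66.7%) and 5 of 6 osteoblast transcription factors (83.3%) held it too. All 31 mitosis genes in the promoter table were among the genes that were higher, so the matches describe the mitosis list and do not separate its members. The upstream 250 bases of *Cdk1*, *Top2a*, *Cdc20* and *Ccnb2*, which hold both motifs, are shown to let the motifs be seen in place, with CCAAT (or ATTGG, its other strand) and TTTGAA (or TTCAAA) in capitals; they come from RefSeq, build GRCm38.p6, all from minus-strand genes, and end at the base before the start, and were picked after their matches were known. Their places are chr10:69352913-69353162 for *Cdk1*, chr11:99024190-99024439 for *Top2a*, chr4:118437344-118437593 for *Cdc20* and chr9:70421555-70421804 for *Ccnb2*.
Cdk1: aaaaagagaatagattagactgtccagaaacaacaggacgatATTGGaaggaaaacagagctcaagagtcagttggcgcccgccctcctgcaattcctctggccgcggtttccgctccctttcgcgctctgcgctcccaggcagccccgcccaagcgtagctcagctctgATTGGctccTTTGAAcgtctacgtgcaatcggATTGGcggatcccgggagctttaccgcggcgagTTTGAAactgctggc
Top2a: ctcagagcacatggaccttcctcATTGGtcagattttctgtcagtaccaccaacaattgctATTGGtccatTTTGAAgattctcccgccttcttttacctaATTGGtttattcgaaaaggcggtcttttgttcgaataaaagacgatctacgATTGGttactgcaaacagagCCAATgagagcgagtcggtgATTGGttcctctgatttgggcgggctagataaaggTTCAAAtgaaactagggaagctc
Cdc20: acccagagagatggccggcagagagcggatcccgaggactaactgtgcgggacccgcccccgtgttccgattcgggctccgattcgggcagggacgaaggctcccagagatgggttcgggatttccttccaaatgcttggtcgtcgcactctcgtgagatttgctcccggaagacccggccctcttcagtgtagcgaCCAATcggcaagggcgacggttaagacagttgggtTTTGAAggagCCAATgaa
Ccnb2: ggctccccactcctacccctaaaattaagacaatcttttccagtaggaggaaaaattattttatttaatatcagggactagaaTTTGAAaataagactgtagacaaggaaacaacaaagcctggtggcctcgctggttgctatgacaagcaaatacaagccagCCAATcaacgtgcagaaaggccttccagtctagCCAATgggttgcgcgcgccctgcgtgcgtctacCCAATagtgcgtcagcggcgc

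Counted from the start site, with -1 as the base before it, the *Cdk1* promoter held CCAAT from -208, -80 and -48 and TTTGAA from -71 and -15. *Top2a* held 6 CCAAT boxes, between -227 and -54, and TTTGAA from -179 and -23. In *Cdc20* CCAAT began at -53 and -8 and TTTGAA at -18, and in *Ccnb2* CCAAT began at -87, -54 and -21 and TTTGAA at -167. No match overlapped another. A match shows that the letters are there, and binding was not measured.

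Genes of DNA replication moved less. Of 35 measured genes, 19 were higher and none lower, with a median log2 ratio of 0.62. Thymidine kinase (*Tk1*), which salvages thymidine for DNA, had 849, 925 and 954 in C2C12-pMirn378 cells, against 258, 205 and 179 in C2C12-pMirn0 cells, with the lines far apart (log2 ratio 2.10 ± 0.12, adjusted p = 1.5e-10). DNA ligase 1 (*Lig1*) and *Uhrf1*, which maintains DNA methylation, had log2 ratios of 1.32 ± 0.15 and 1.31 ± 0.16. Ribonucleotide reductase *Rrm2*, a source of deoxynucleotides, was bright and was higher by 0.76 ± 0.09. Of the helicase subunits, *Mcm3*, *Mcm5* and *Mcm6* were higher, with ratios of 0.61 to 0.96, while *Mcm2*, *Mcm4* and *Mcm7* did not pass on their brightest probe sets, with 0.25, 0.49 and 0.22. A dimmer *Mcm4* probe set was higher (log2 ratio 0.75 ± 0.10, adjusted p = 1.2e-05). The clamp *Pcna* had an adjusted p of 0.0014 at a log2 ratio of 0.44, under the 0.6 required. At d3 without BMP2 only 3 of the 35 were higher, with a median of 0.38, and at d6 with BMP2 none was higher and 7 were lower, with a median of -0.27.

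The regulators that stop or start the cycle moved in both directions, 3 of 18 up and 3 down. Cyclins D1 and D2, which drive cells from rest into the cycle, were lower: *Ccnd2* had 899, 735 and 664 in C2C12-pMirn378 cells, against 2542, 2298 and 2461 in C2C12-pMirn0 cells, and *Ccnd1* had 1479, 1381 and 1487 in C2C12-pMirn378 cells, against 2602, 2699 and 2652 in C2C12-pMirn0 cells. The values of the lines did not overlap for either cyclin, all 7 *Ccnd2* and all 3 *Ccnd1* probe sets were lower, and the log2 ratios were -1.68 ± 0.10 and -0.87 ± 0.08. The growth arrest gene *Gadd45a* was lower as well (log2 ratio -1.44 ± 0.10, adjusted p = 8.1e-10). Of the inhibitors of the cyclin D kinases, *Cdkn2c* (p18) had 1224, 1375 and 1327 in C2C12-pMirn378 cells, against 715, 651 and 697 in C2C12-pMirn0 cells, and *Cdkn2d* (p19) had 1756, 1882 and 1900.5 in C2C12-pMirn378 cells, against 874, 1089.7 and 891 in C2C12-pMirn0 cells. Both were thus higher on every C2C12-pMirn378 array, by 0.93 ± 0.07 and 0.96 ± 0.09, and the retinoblastoma relative *Rbl1* by 0.81 ± 0.11. The repressor *Mxd3* of the Myc network, which is not in the list, had 173, 223 and 148 in C2C12-pMirn378 cells, against 24.8, 6.78 and 14.2 in C2C12-pMirn0 cells, and its 3 probe sets were all higher (log2 ratio 3.74 ± 0.47, adjusted p = 5.8e-06).

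The group with the most negative median among those shown in the plot of called shares by list was that of unfolded protein and amino acid stress. Of its 29 measured genes, 12 were lower in C2C12-pMirn378 cells and none higher, with a median log2 ratio of -0.51. The members that were lower are targets of the transcription factor ATF4 and enzymes of serine, glycine and cysteine synthesis, which cells induce when amino acids or folding capacity run short. Cystathionine gamma-lyase (*Cth*), which makes cysteine, had 980.4, 866 and 725 in C2C12-pMirn378 cells, against 3526, 3493 and 3471 in C2C12-pMirn0 cells. *Trib3*, a pseudokinase induced by ATF4, had 1169, 996 and 880.5 in C2C12-pMirn378 cells, against 3444, 3664 and 3766 in C2C12-pMirn0 cells, and *Ddit3* (CHOP) had 2728, 2304 and 2004 in C2C12-pMirn378 cells, against 5924, 5756 and 5778 in C2C12-pMirn0 cells. The lines were far apart in these 3 genes, with log2 ratios of -2.04 ± 0.16, -1.84 ± 0.20 and -1.32 ± 0.11. The serine pathway genes *Phgdh* (-0.97 ± 0.09), *Psat1* (-0.93 ± 0.11) and *Shmt2* (-0.99 ± 0.08) were lower together, as were the cystine transporter *Slc7a11* (-1.38 ± 0.27), the leucine transporter *Slc7a5* (-0.90 ± 0.12), the mitochondrial folate enzyme *Aldh1l2* (-1.22 ± 0.13), the stress factors *Atf3* (-1.28 ± 0.13) and *Sesn2* (-0.73 ± 0.15), and asparagine synthetase *Asns* (-0.71 ± 0.09). The chaperones and folding enzymes of the same list did not join them: *Hspa5* (BiP) had a log2 ratio of -0.32, *Hsp90b1* 0.08, *Pdia4* 0.16, *Pdia6* 0.25 and *Dnajb9* -0.03, none called, and *Creld2* was at 0.51 ± 0.07 with an adjusted p of 5e-05. *Atf4* itself had a log2 ratio of -0.24 ± 0.08 on its brightest probe set (adjusted p = 0.069), and 1 of its 3 probe sets was lower (log2 ratio -0.62 ± 0.12, adjusted p = 0.001). None of the 29 genes was called in either direction at d3 without BMP2 (median -0.09) or at d6 with BMP2 (median -0.07).

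Genes that ATF4 induces carry a composite element, TGATGNAA, to which it binds with a partner of the C/EBP family. On either strand of the 250 upstream bases, 7 of 24 genes of the list in the promoter table held it (29.2%), against 3.91% of all genes, and 3 of 9 of the members that were lower held it (33.3%). The element thus describes the list and does not separate its lower members, and the promoters shown are from those 3. The promoters of *Asns* (chr6:7693210-7693459, minus strand) and *Atf3* (chr1:191183334-191183583, minus strand), both lower, are shown with the element in capitals, from -23 in *Asns* and, on the opposite strand, from -110 in *Atf3* (RefSeq, GRCm38.p6).
Asns: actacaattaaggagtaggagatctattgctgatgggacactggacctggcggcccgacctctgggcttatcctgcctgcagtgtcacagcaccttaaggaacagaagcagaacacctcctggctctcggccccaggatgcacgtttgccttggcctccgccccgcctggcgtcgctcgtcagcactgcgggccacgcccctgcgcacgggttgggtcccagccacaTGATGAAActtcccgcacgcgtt
Atf3: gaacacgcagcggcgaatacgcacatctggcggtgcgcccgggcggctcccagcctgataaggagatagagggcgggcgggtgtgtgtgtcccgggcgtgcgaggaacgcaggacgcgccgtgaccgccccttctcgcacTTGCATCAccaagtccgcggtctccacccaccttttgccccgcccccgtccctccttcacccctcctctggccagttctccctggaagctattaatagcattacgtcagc

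Many genes of cholesterol and fatty acid synthesis were higher. Of 21 measured genes, 10 were higher and none lower, with a median log2 ratio of 0.59. *Fdps*, which makes farnesyl pyrophosphate, had 3437, 4125 and 4464 in C2C12-pMirn378 cells, against 1415, 1845 and 1667 in C2C12-pMirn0 cells, and *Hmgcs1*, at the entry of the mevalonate pathway, had 5143, 5839 and 6486 in C2C12-pMirn378 cells, against 3347, 3302 and 3207 in C2C12-pMirn0 cells. Neither gene had overlapping values (log2 ratio 1.29 ± 0.12, adjusted p = 8.1e-08 for *Fdps*; log2 ratio 0.82 ± 0.08, adjusted p = 1.5e-07 for *Hmgcs1*). *Idi1*, *Sqle*, *Cyp51*, *Nsdhl* and *Mvk* of the same pathway were higher by 0.72 to 0.98, the sterol carrier *Stard4* by 1.13, the sterol sensor *Insig1* by 0.76, and fatty acid synthase *Fasn* by 0.60. *Srebf2*, the transcription factor of the pathway, had a log2 ratio of 0.59 ± 0.09 with an adjusted p of 5.9e-05, just under the fold required. *Dhcr7*, *Lss*, *Mvd*, *Acaca* and *Acly* lay between -0.13 and 0.15 and were not called. The list's median was 0.36 at d3 without BMP2, with 1 gene higher, and 0.06 at d6 with BMP2, with none higher.

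**Figure D3:**
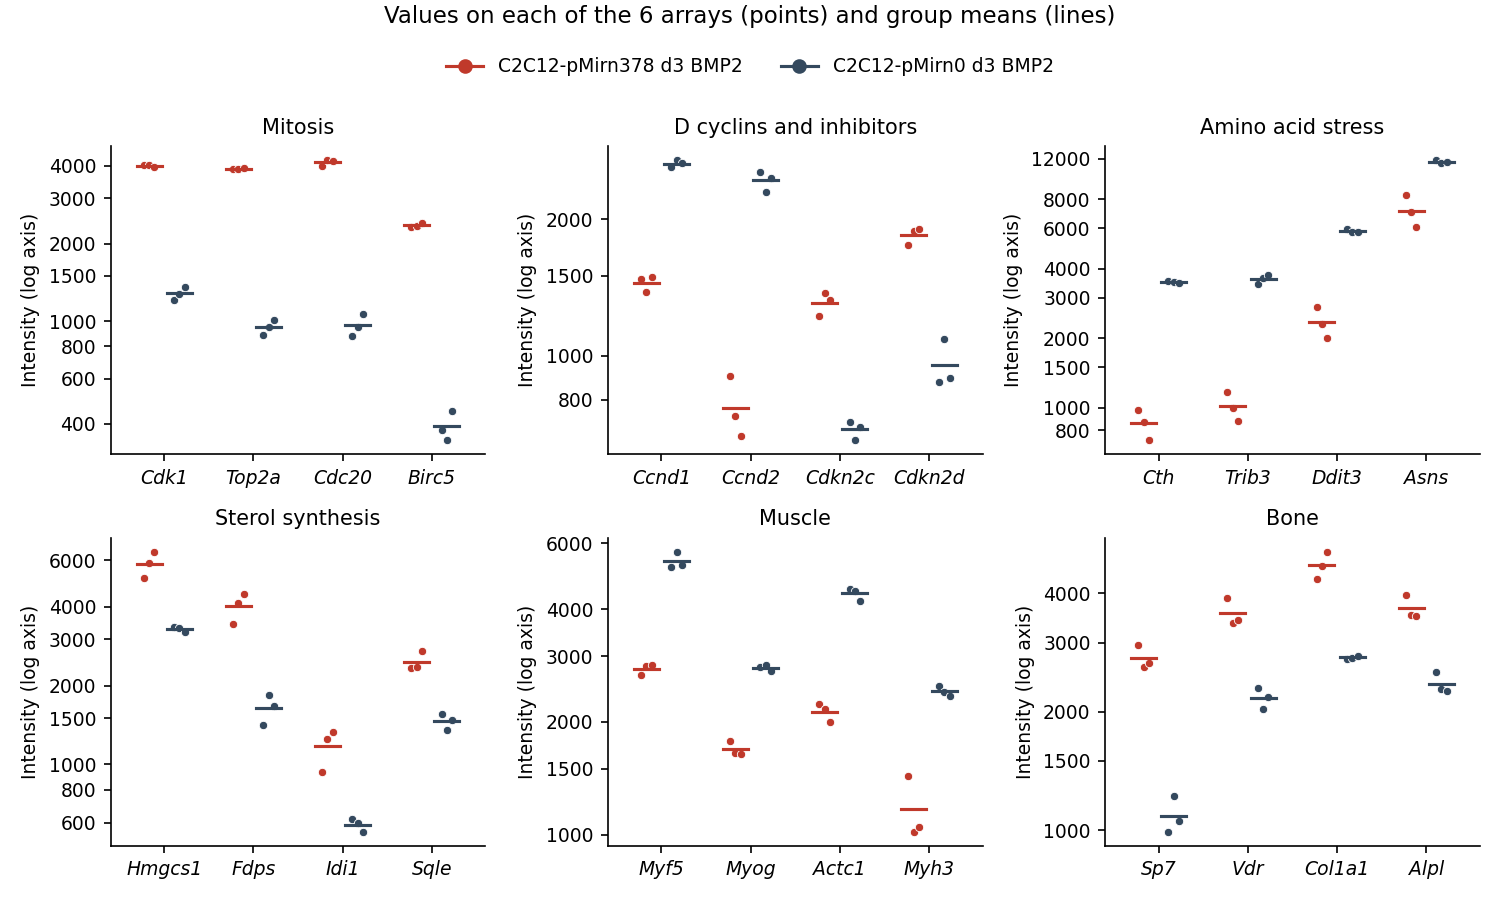
Points are the intensities of the 3 arrays of each line at d3 with BMP2 on a log axis, and lines are group means, with C2C12-pMirn378 left of C2C12-pMirn0 for each gene. None of the 24 genes has overlapping groups, among them *Cdk1* (3969 to 4041 against 1212 to 1359) and *Myog* (1646 to 1783 against 2738 to 2831).

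Some muscle genes were lower in C2C12-pMirn378 cells. Of 15 myogenic regulators 3 were lower and none higher, with a median log2 ratio of -0.34. *Myf5*, which sets myoblast identity, had 2667, 2828 and 2839 in C2C12-pMirn378 cells, against 5181, 5703 and 5247 in C2C12-pMirn0 cells, and myogenin (*Myog*), which starts differentiation, had 1783, 1650.0 and 1646 in C2C12-pMirn378 cells, against 2809.8, 2831 and 2738 in C2C12-pMirn0 cells. Neither gene's values overlapped, and the log2 ratios were -0.95 ± 0.08 and -0.72 ± 0.08. *Smyd1*, a methyltransferase of muscle, was lower on 1 of 6 probe sets (log2 ratio -0.63 ± 0.13, adjusted p = 0.002). *Myod1* had an adjusted p of 0.00089 at a log2 ratio of -0.39, under the fold required, and *Mef2c*, at -0.45 with an adjusted p of 0.0081, was not called either. The promoter of *Myog* (chr1:134289754-134290003, plus strand, GRCm38.p6 from RefSeq) is shown with its E-boxes, CANNTG, the letters that MyoD family factors recognise, in capitals, from -138 and -12. E-boxes are frequent, and 69.3% of all genes in the promoter table had 1 or more in this window, against 4 of 10 myogenic regulators.
Myog: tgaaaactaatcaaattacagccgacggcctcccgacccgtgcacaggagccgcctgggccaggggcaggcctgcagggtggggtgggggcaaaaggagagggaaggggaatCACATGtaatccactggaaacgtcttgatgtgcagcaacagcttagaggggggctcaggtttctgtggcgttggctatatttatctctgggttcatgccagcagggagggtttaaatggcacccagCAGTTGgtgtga

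Among 38 sarcomere genes 7 were lower and 1 higher, with a median log2 ratio of -0.30, or -0.19 without the 7 that were dim. Cardiac actin (*Actc1*) had 2238, 2163 and 1996 in C2C12-pMirn378 cells, against 4530.2, 4481 and 4208 in C2C12-pMirn0 cells, and embryonic myosin (*Myh3*) had 1438, 1019 and 1048 in C2C12-pMirn378 cells, against 2492, 2399 and 2347 in C2C12-pMirn0 cells. Both genes had every C2C12-pMirn378 array below every C2C12-pMirn0 array, with log2 ratios of -1.05 ± 0.10 and -1.06 ± 0.12. Slow myosin *Myh7* (-1.46 ± 0.14), the embryonic light chain *Myl4* (-1.14 ± 0.13), the Z-disc protein *Myoz2* (-0.97 ± 0.14) and cardiac troponin T (*Tnnt2*, -0.73 ± 0.09) were lower too, and perinatal *Myh8* was lower on dim values (log2 ratio -3.43 ± 0.65, adjusted p = 0.00077). Among other members, *Myh1* was at -0.13, *Mylpf* at -0.14, *Tnnc2* at -0.06, *Ttn* at 0.02 and *Acta1* at 0.09, none called, although a dimmer *Ttn* probe set was lower (log2 ratio -0.81 ± 0.18, adjusted p = 0.0042). Fast troponin T (*Tnnt3*) had 1169, 978 and 1041 in C2C12-pMirn378 cells, against 1628, 1468 and 1473 in C2C12-pMirn0 cells, with no overlap but under the fold required (log2 ratio -0.52 ± 0.10, adjusted p = 0.00065). The muscle creatine kinase *Ckm* went the other way, with 182, 178 and 224 in C2C12-pMirn378 cells, against 121, 104.4 and 112 in C2C12-pMirn0 cells (log2 ratio 0.78 ± 0.17, adjusted p = 0.0023); 1 of its 2 probe sets was called. The summed intensity of the list over the 3 arrays ran from 83851 to 91485 in C2C12-pMirn378 cells and from 92331 to 102940 in C2C12-pMirn0 cells, so that the ranges did not meet. Of 23 genes of the muscle membrane and synapse 1 was lower, the calcium store protein *Casq2* (log2 ratio -0.72 ± 0.08, adjusted p = 2.8e-06), and 0 higher. The median log2 ratio of that list was -0.21. Its summed intensity, which is weighted toward bright members, ran the other way, from 21384 to 22014 in C2C12-pMirn378 cells and from 17587 to 18757 in C2C12-pMirn0 cells. Its acetylcholine receptor subunit *Chrna1* had 13206, 12960.0 and 12704 in C2C12-pMirn378 cells, against 9121, 8660.5 and 8428 in C2C12-pMirn0 cells, with no overlap but under the fold required (log2 ratio 0.57 ± 0.08, adjusted p = 3e-05). *Chrna1* alone was higher by more than the sum was, so that the other members of that list summed lower. No sarcomere gene was called at d3 without BMP2, where the median was 0.05, and 19 were lower at d6 with BMP2, where it was -0.84. At d0 the median was -0.13, and *Myoz2* was called lower (log2 ratio -0.87). Relative to C2C12-pMirn0 at d0, the mean log2 level of 35 sarcomere genes was -0.22 in C2C12-pMirn378 cells at d0. At d3 with BMP2 that mean was -0.62 in C2C12-pMirn378 cells and -0.16 in C2C12-pMirn0 cells.

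On the osteoblast side, *Sp7*, the transcription factor required for osteoblast formation, had 2958, 2598 and 2662 in C2C12-pMirn378 cells, against 992, 1224 and 1053 in C2C12-pMirn0 cells. Its lowest C2C12-pMirn378 value was over the highest C2C12-pMirn0 value by more than the spread of either group (log2 ratio 1.33 ± 0.20, adjusted p = 6.5e-05), and it was the 1 gene called of 11 osteoblast transcription factors, whose median was -0.09 and, over the members that were not dim, 0.17. *Dlx5* had a log2 ratio of 1.75 ± 0.70 and *Msx2* of 0.68 ± 0.25, and neither passed (adjusted p = 0.12 and 0.098), although the arrays of the lines did not overlap for either. Of 23 genes of bone matrix, mineralization and hormone response 4 were higher and none lower, with a median log2 ratio of 0.25 over all 23 and of 0.55 over the 16 that were not dim. They were the insulin-like growth factor binding protein *Kazald1* (1.10 ± 0.13), the growth factor receptor *Fgfr3* (0.80 ± 0.14), type I collagen *Col1a1* (0.78 ± 0.12) and the vitamin D receptor *Vdr* (0.72 ± 0.12 on the brighter of 2 probe sets, both called). *Vdr* had 3906, 3369.7 and 3427 in C2C12-pMirn378 cells, against 2293, 2034 and 2185 in C2C12-pMirn0 cells on that probe set, and *Col1a1* had 4347, 4697 and 5115 in C2C12-pMirn378 cells, against 2729, 2738 and 2781 in C2C12-pMirn0 cells. The lines were separate in both, and a second *Col1a1* probe set, with a ratio of 0.68 ± 0.30, did not pass.

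Alkaline phosphatase (*Alpl*), the enzyme that frees phosphate for mineral, had 3973, 3526 and 3501 in C2C12-pMirn378 cells, against 2526, 2289 and 2263 in C2C12-pMirn0 cells, with no overlap but without passing the test (log2 ratio 0.64 ± 0.21, adjusted p = 0.051). *Pdgfra*, a growth factor receptor of mesenchymal cells, had 2865, 2845 and 2687 in C2C12-pMirn378 cells, against 1525, 1499 and 1515 in C2C12-pMirn0 cells on its brightest probe set (log2 ratio 0.89 ± 0.22, adjusted p = 0.0084), and a dimmer one of 3 was called. Osteoprotegerin (*Tnfrsf11b*), a decoy receptor that restrains osteoclasts, had 504, 860.2 and 1248 in C2C12-pMirn378 cells, against 182, 195 and 204 in C2C12-pMirn0 cells, without overlap, at a log2 ratio of 2.07 ± 0.49 that missed the threshold (adjusted p = 0.0062), and the parathyroid hormone receptor *Pth1r* was at 1.17 ± 0.51 (adjusted p = 0.17). At d3 without BMP2 none of the 23 was higher and 1, *Col1a1*, was lower, with a median of -0.05. At d6 with BMP2 7 were higher and the median was 0.22. *Ibsp*, *Dmp1*, *Mepe*, *Phex* and *Smpd3* were dim in both lines. *Runx2* and *Bglap* were not analysed here, as no probe set carried their symbol alone. The study counts *Dlx5*, *Alpl*, *Pdgfra* and the second *Col1a1* probe set as significantly higher at consecutive time points with BMP2, d3 among them.

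**Figure D4:**
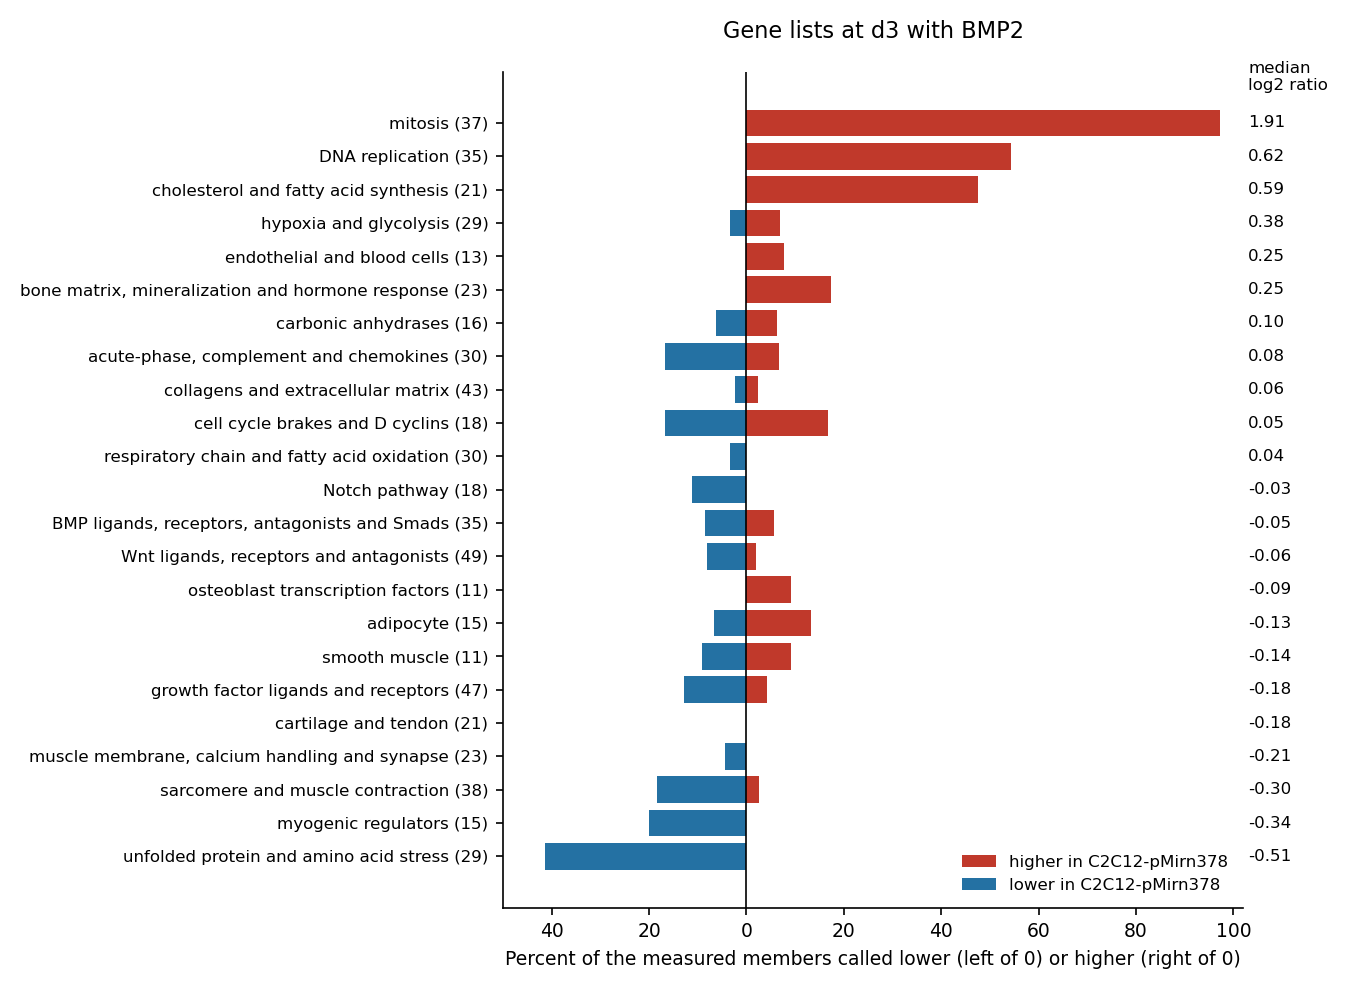
Bars give the percent of the measured members (number in brackets) of 23 gene lists that were called higher (right) or lower (left) in C2C12-pMirn378 at d3 with BMP2, ordered by the median log2 ratio printed at the right. Mitosis stands at the top with 36 of 37 higher and a median of 1.91, and stress at the bottom with 12 of 29 lower and a median of -0.51. Without dim members the median changes sign for the Wnt, cartilage, acute-phase, osteoblast transcription factor and carbonic anhydrase lists.

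Signalling genes changed one by one. Of 35 genes of the BMP pathway 2 were higher and 3 lower, with a median log2 ratio of -0.05. The decoy receptor *Bambi*, which BMP signalling induces and which blocks it in turn, had 886, 957 and 958 in C2C12-pMirn378 cells, against 302, 289 and 278 in C2C12-pMirn0 cells (log2 ratio 1.69 ± 0.27, adjusted p = 0.00011), and the procollagen protease *Bmp1* was higher by 0.72 ± 0.10. The ligand *Bmp4* had 598, 649 and 478 in C2C12-pMirn378 cells, against 1622, 1532 and 1768 in C2C12-pMirn0 cells and was lower (log2 ratio -1.52 ± 0.23, adjusted p = 5.7e-05). The BMP antagonist gremlin (*Grem1*) had 444, 458 and 561 in C2C12-pMirn378 cells, against 999.6, 1055 and 1039.7 in C2C12-pMirn0 cells, with separate groups (log2 ratio -1.09 ± 0.13, adjusted p = 2e-06), and the antagonist *Chrdl1* was lower on dim values. The immediate BMP target *Id1* had a log2 ratio of 0.37 ± 0.07 and an adjusted p of 0.00051, under the fold required. *Bmp4* was lower in C2C12-pMirn378 at d0 (-1.57) and at d3 without BMP2 (-1.32) as well, and at d6 with BMP2 its log2 ratio was -0.0043.

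Of 49 genes of the Wnt pathway 1 was higher and 4 lower, with a median of -0.06, or 0.10 without the 16 that were dim. The non-canonical ligand *Wnt5a* had 35.2, 8.30 and 22.3 in C2C12-pMirn378 cells, against 149, 98.0 and 109.8 in C2C12-pMirn0 cells, and the Wnt enhancer *Rspo3* had 13.4, 32.8 and 24.1 in C2C12-pMirn378 cells, against 172, 121 and 138 in C2C12-pMirn0 cells. Both were a little above the dim limit in C2C12-pMirn0 cells and below it in C2C12-pMirn378 cells (log2 ratio -2.65 ± 0.45, adjusted p = 0.00026 for *Wnt5a*; log2 ratio -2.70 ± 0.61, adjusted p = 0.0041 for *Rspo3*), and only 1 of 4 *Wnt5a* and 1 of 2 *Rspo3* probe sets passed. The matricellular protein *Ccn4* (WISP1), a Wnt target, was bright and was lower, with a log2 ratio of -0.89 ± 0.08, as was the receptor *Fzd4*, with -0.81 ± 0.11, and the ligand *Wnt9a* was higher by 0.66 ± 0.11. *Wnt10a*, with 237, 259 and 224 in C2C12-pMirn378 cells, against 301, 369.6 and 439 in C2C12-pMirn0 cells, had no overlap but missed the threshold (log2 ratio -0.61 ± 0.17, adjusted p = 0.019). The study counts *Wnt10a* as significantly lower at d3 with BMP2. *Grem1*, *Wnt5a* and *Wnt10a* are the genes that the study selected as candidate miR-378 targets partly from these arrays. Their direction here is thus not independent evidence. In the study's luciferase reporter assay, miR-378 had no significant effect on the untranslated regions of these genes. By that assay, the study holds, they seem not to be direct targets. At d0, before BMP2, they were called lower too, with log2 ratios of -1.02, -2.91 and -1.03, and none was called at d3 without BMP2. Of 8 genes reported elsewhere as miR-378 targets 7 were measured and none was called, with a median of 0.06. Of the 7, *Msc* and *Bmp2* were dim in both lines, so that their lack of a call says little. The insulin-like growth factor receptor *Igf1r* was at 0.06 ± 0.08, the adaptor *Grb2* at 0.01 ± 0.09, the scaffold *Ksr1* at 0.07 ± 0.12, the glycosyltransferase *Galnt7* at -0.43 ± 0.12 and nephronectin (*Npnt*) at 0.55 ± 0.08, with adjusted p-values of 0.78, 0.97, 0.84, 0.020 and 4.0e-05. The last of these was bright, with 11510.0, 10054 and 9908 in C2C12-pMirn378 cells, against 7391, 6945 and 7076 in C2C12-pMirn0 cells, its groups did not overlap, and 1 of its 5 probe sets was called (log2 ratio 0.60 ± 0.08, adjusted p = 9.9e-06).

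Of 47 growth factor ligands and receptors 6 were lower and 2 higher, with a median log2 ratio of -0.18. The epidermal growth factor family ligand *Ereg* had 160.0, 151 and 162 in C2C12-pMirn378 cells, against 377.5, 397 and 412 in C2C12-pMirn0 cells (log2 ratio -1.32 ± 0.11, adjusted p = 2.4e-08), and the fibroblast growth factor *Fgf7* had 767, 665 and 822 in C2C12-pMirn378 cells, against 2052, 2082 and 2259.5 in C2C12-pMirn0 cells (log2 ratio -1.51 ± 0.16, adjusted p = 6.9e-07). Neither overlapped. The insulin-like growth factors diverged, *Igf1* being lower at low intensity (-1.41 ± 0.31) and *Igf2* higher (0.72 ± 0.12), and *Tgfb1* was higher by 0.68 ± 0.13. Of 30 acute-phase and chemokine genes 5 were lower and 2 higher, with a median of 0.08, or -0.37 without the 10 that were dim. The median of all 30 was -0.95 at d0, -0.20 at d3 without BMP2 and 0.53 at d6 with BMP2. At d6 with BMP2, 5 of the 30 were higher and 0 lower, when 1.54% of all genes were higher and 1.31% lower. Cyclooxygenase 2 (*Ptgs2*), which makes prostaglandins, had 5712, 5337 and 5700.5 in C2C12-pMirn378 cells, against 11706, 11302 and 10783 in C2C12-pMirn0 cells (log2 ratio -1.01 ± 0.07, adjusted p = 2.2e-09). The neutrophil attractants *Cxcl1* and *Cxcl5* were lower, with log2 ratios of -1.48 ± 0.14 and -1.55 ± 0.18, and the complement inhibitor *Serping1* was higher by 1.30 ± 0.12. The Notch ligand *Jag1* (-1.12 ± 0.12) and the Notch effector *Rbpj* (-0.67 ± 0.08) were the 2 genes lower of 18 in that pathway, with none higher and a median of -0.03.

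Metabolic and matrix genes gave single calls. Of 29 genes of hypoxia and glycolysis 2 were higher, *Bnip3* (0.67 ± 0.08) and *Pfkfb4*, and 1 lower, *Ndrg1* (-0.81 ± 0.08), but 18 of the 29 had every C2C12-pMirn378 array above every C2C12-pMirn0 array, against 17.2% of all genes, and the median was 0.38. Of 30 respiratory chain and fatty acid oxidation genes none was higher and 1 lower, the heart and muscle cytochrome oxidase subunit *Cox6a2*, with 270.4, 209 and 167 in C2C12-pMirn378 cells, against 1022, 996 and 979 in C2C12-pMirn0 cells (log2 ratio -2.24 ± 0.17, adjusted p = 4.8e-09). The median of that list was 0.04. Of 43 collagens and other matrix genes thrombospondin 2 (*Thbs2*) was higher by 0.78 ± 0.09, on 2 of 3 probe sets. *Col18a1* was lower on 1 of 2, with a log2 ratio of -0.77 ± 0.11, and the median of the list was 0.06. By dimmer probe sets, *Timp3* was lower on 3 of 4, *Ccn1* lower on 1 of 4 and *Npnt* higher on 1 of 5. None of 21 cartilage and tendon genes was called (median -0.18, or 0.24 without the 14 that were dim). Among 15 adipocyte genes the lipases and desaturases *Lpl* (0.74 ± 0.09) and *Scd1* (0.61 ± 0.08) were higher and the fatty acid transporter *Cd36* (-1.30 ± 0.13) lower, with a median of -0.13. Of the lists for other cell types, smooth muscle had 1 higher (*Smtn*) and 1 lower (*Mylk*) of 11, and endothelial and blood cells 1 higher (*Cd14*) of 13, of which 10 were dim.

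The genes with the largest differences were varied. Carbonic anhydrase 6 (*Car6*), a secreted enzyme of saliva and milk, had 139.8, 109 and 85.1 in C2C12-pMirn378 cells, against 2425, 2392 and 2663 in C2C12-pMirn0 cells, and its log2 ratio of -4.51 ± 0.30 was the most negative of the called genes that were not dim (adjusted p = 6.4e-10). *Car6* was dim in both lines at d0, with means of 36.1 ± 7.86 in C2C12-pMirn378 cells and 36.2 ± 16.4 in C2C12-pMirn0 cells (SD, n = 3 each), and at d6 with BMP2 it had 3291, 4694 and 2890.0 in C2C12-pMirn378 cells, against 9355, 8575 and 8897 in C2C12-pMirn0 cells. The lines did not overlap at d6 either, but that *Car6* difference did not pass (log2 ratio -1.33, adjusted p = 0.0058). Of the other 15 carbonic anhydrases mitochondrial *Car5b* was called, and it was higher (log2 ratio 1.09 ± 0.14, adjusted p = 6.4e-06). The actin binding protein advillin (*Avil*) had 66.4, 34.9 and 36.2 in C2C12-pMirn378 cells, against 609, 427 and 567 in C2C12-pMirn0 cells, the ferritin receptor *Scara5* had 298, 269 and 256 in C2C12-pMirn378 cells, against 1959, 1676 and 1949 in C2C12-pMirn0 cells on 1 of 2 probe sets, and the skin adhesion protein *Cdsn* had 780.3, 603 and 519.5 in C2C12-pMirn378 cells, against 4363, 3753 and 4121 in C2C12-pMirn0 cells. All 3 were lower without overlap, with log2 ratios of -3.59 ± 0.50, -2.76 ± 0.51 and -2.70 ± 0.22. The drug exporter *Abcb1a* (-3.56), the lysophosphatidic acid receptor *Lpar4* (-2.43), *Ms4a4d* (-2.41) and the matricellular *Ccn3* (-2.27) were lower on every one or most of their probe sets. Of these, *Ms4a4d* was also called lower at d0 (-1.75), at d3 without BMP2 (-2.21) and at d6 with BMP2 (-1.56). For the polarity scaffold *Lin7a* (-4.35), the ATP-gated channel *P2rx3* (-2.95), the lipoprotein receptor *Vldlr* (-2.81), the growth factor inhibitor *Spry4* (-2.72) and the adaptor *Pag1* (-2.67) only 1 of 3, 3, 6, 4 and 4 probe sets was called. Of the 15 most lowered genes 10 had a C2C12-pMirn378 mean under the dim limit, *Avil*, *Abcb1a*, *Ms4a4d*, *Ccn3*, *Lin7a*, *Vldlr*, *Spry4* and *Pag1* among them, and were not dim through the C2C12-pMirn0 arrays alone, so that the same holds for their sizes and rank as for *Wnt5a* and *Rspo3*: they are no measured folds.

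Of the 15 most raised genes most act in mitosis, and the others are varied. The hair keratin *Krt31* had 1869, 1697 and 2438 in C2C12-pMirn378 cells, against 219.6, 210.5 and 286 in C2C12-pMirn0 cells (log2 ratio 3.06 ± 0.19, adjusted p = 1.9e-10), with the lines far apart. Clusterin (*Clu*), a secreted chaperone, had 751, 778 and 832 in C2C12-pMirn378 cells, against 49.8, 49.6 and 100.4 in C2C12-pMirn0 cells and all 4 of its probe sets were higher, and histidine decarboxylase (*Hdc*), which makes histamine, was higher at low intensity (log2 ratio 2.82 ± 0.55, adjusted p = 0.00099). The cell cycle genes among them beyond those given above were the cohesin protector *Sgo1*, the cohesin regulator *Cdca5*, *Gas2l3*, which links actin and microtubules, *Depdc1b* and *Sapcd2*, with log2 ratios of 3.34, 2.25, 2.41, 2.50 and 3.86. Of these 15 genes 8 had a C2C12-pMirn0 mean under the dim limit: *Clu*, *Hdc*, *Sgo1*, *Depdc1b*, *Sapcd2*, *Mxd3*, *Ndc80* and *Foxm1* on its dimmer probe set. They were not dim through the C2C12-pMirn378 arrays alone, so that their sizes and rank are no measured folds. For *Sapcd2* 1 of 3 probe sets was called.

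How far the differences belong to BMP2 and to d3 was tested as a difference of line differences. It shares the 6 arrays described here with the comparison above, so that genes called there are more likely to be called here. The line difference with BMP2 at d3 was higher than that without BMP2 for 292 probe sets (0.648%) and lower for 268 (0.595%), and it was higher at d3 than at d6, with BMP2 at both, for 349 probe sets (0.775%) and lower for 230 (0.511%). By gene the shares were 1.14% and 0.863% between treatments and 1.25% and 0.764% between days. Of the 729 probe sets that were higher at d3 with BMP2, 83 were also higher at d3 without it, when 105 probe sets in all (0.233%) were higher and 84 (0.187%) lower, and of the 660 that were lower 25 were lower there. At d6 with BMP2, 169 of the 729 were higher and 167 of the 660 lower, when 448 (0.995%) were higher and 377 (0.837%) lower. At d0, with 119 higher (0.264%) and 227 lower (0.504%), it was 4 of the 729 and 56 of the 660.

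The gene lists differed in this. For mitosis the line difference was larger with BMP2 than without in 21 of 37 genes and larger at d3 than at d6 in 33, and for DNA replication in 2 and 20 of 35, with 1 gene lower with BMP2 than without. For stress it was more negative with BMP2 than without in 7 of 29 genes and more negative at d3 than at d6 in 9. For the sarcomere it was more negative with BMP2 in 4 of 38 genes and less negative at d3 than at d6 in 8, the muscle genes being further apart at d6. For bone matrix it was higher with BMP2 in 4 of 23 genes and did not differ past the threshold between d3 and d6 in any.

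**Figure D5:**
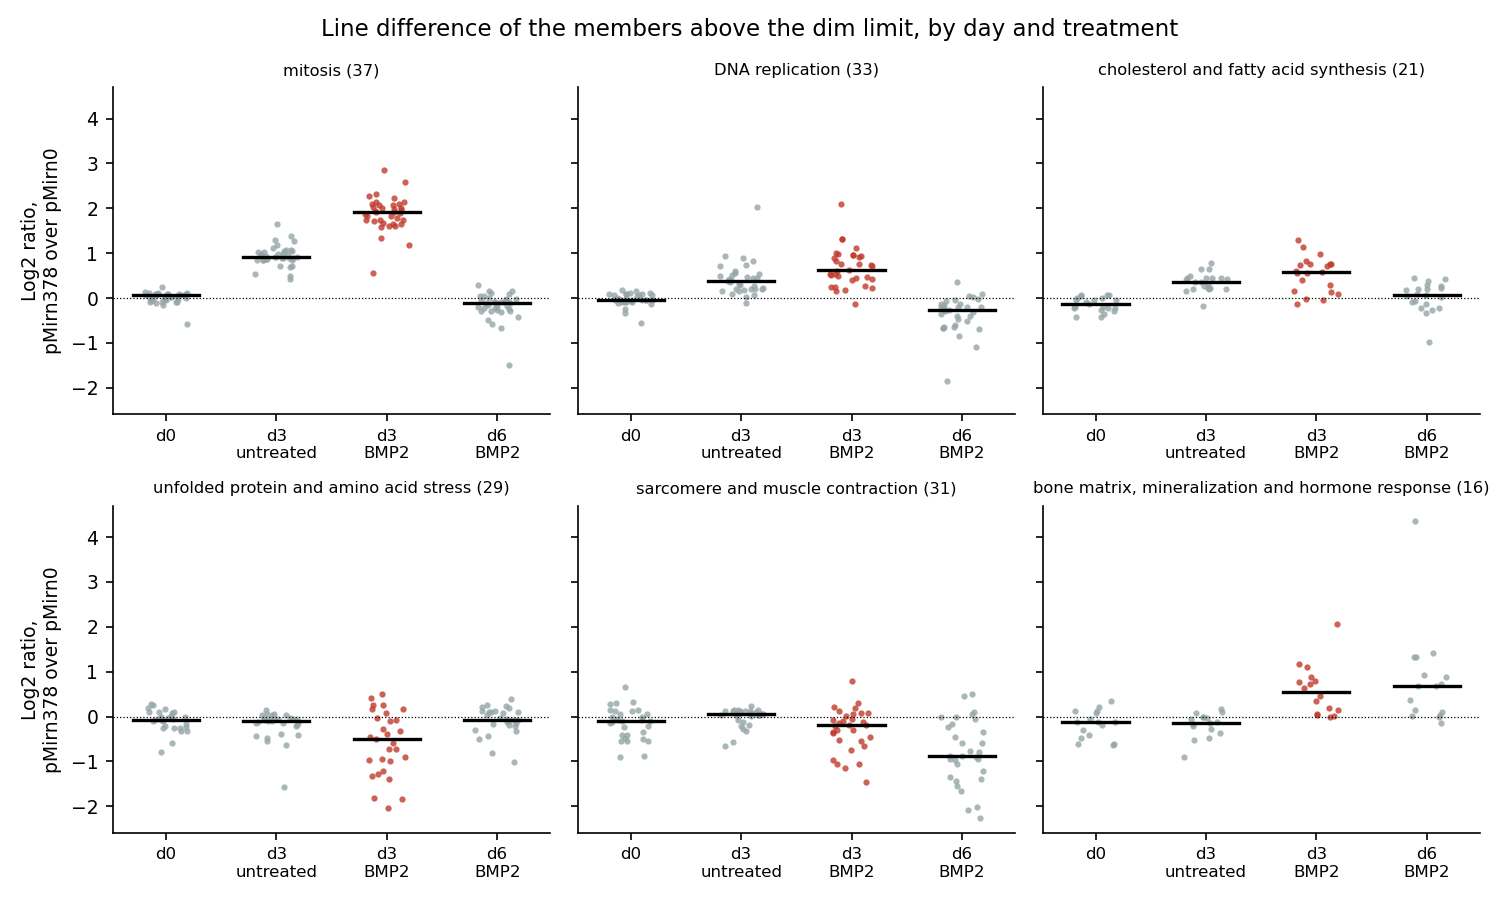
Each point is the log2 ratio of C2C12-pMirn378 over C2C12-pMirn0 for 1 gene of a list that was not dim at d3 with BMP2 (number in brackets), at d0, at d3 without and with BMP2 and at d6 with BMP2, and black lines are medians. Mitosis moves with the medians 0.06, 0.93, 1.91 and -0.10, whereas for the sarcomere the values are lowest at d6.

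Among the genes with the largest change of the line difference between treatments, *Krt31* had a log2 ratio of 3.06 with BMP2 and -0.31 without, *Calcb*, a calcitonin-related peptide, 1.96 and -0.42, *Spata13* 1.66 and -0.73, and the protease *Adamts16* 1.14 and -1.01. *Wnt4* had 0.90 and -1.87, and with BMP2 alone it missed the threshold (adjusted p = 0.044). In the other direction stood *Lin7a* with -4.35 and 0.13, *Car6* with -4.51 and -1.30, *Spry4* with -2.72 and 0.11, the receptor substrate *Eps8* with -1.89 and 0.71, and the glutathione transferase *Gsta2* with -1.60 and 0.93. *Eps8* had 247, 243 and 267 in C2C12-pMirn378 cells, against 1048, 825 and 946 in C2C12-pMirn0 cells at d3 with BMP2, so that it was lower in C2C12-pMirn378 there, and all 3 of its probe sets were lower. Between days, *Mxd3* had a log2 ratio of 3.74 at d3 and -0.63 at d6, *Kif23* 2.27 and -1.48, and the cell cycle genes *Dlgap5*, *Ticrr* and *Gas2l3* 2.13 and -0.96, 2.13 and -0.83, and 2.41 and -0.35. Haptoglobin (*Hp*) had 0.94 at d3, where it was not called, and 5.47 at d6. The chemokine *Cxcl12* on its probe set chosen here had -0.78 and 1.45, and the early growth response factors *Egr2* and *Egr3* had -1.37 and 0.50, and -1.18 and 0.92.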

How the data were processed

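RNA of each culture was hybridised to 1 Affymetrix Mouse Genome 430 2.0 array. The deposited values are intensities on a linear scale, for which the submitters' processing notes list R 2.4.1 and RMA; the study's methods give an RMA summary followed by quantile normalization, but the array medians ran from 68.0 to 82.7, which a common quantile distribution over the 30 arrays would not give, and the step behind this is not given in the sources used here. The log2 of these intensities was taken with no offset, 64 control probe sets were left out, and 45037 were fitted with limma 3.58.1 in R 4.3.3, with 10 group means over all 30 arrays and Benjamini-Hochberg adjustment within each contrast. Calls required a log2 ratio past 0.6 and an adjusted p below 0.005, the study's thresholds. Not all genes that the study counts as different at d3 with BMP2 were called here. Those named above are *Dlx5*, *Alpl*, *Wnt10a* and the study's probe sets of *Pdgfra* and *Col1a1*, and the cause was not tested. The script was tested on simulated data. Gene symbols came from the platform annotation: 34945 probe sets had 1 symbol, 932 several and 9160 none, and only those with 1 were named. Promoter motifs were searched on both strands of the 250 bases upstream of each start in the RefSeq table (GRCm38.p6), and a gene counted if any of its promoters matched.

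The members and gene lists were chosen with earlier results of these data known. Genes were named by a rule. It gave the 15 called genes with the largest change each way among probe sets that were not dim and had no overlap. Probe sets with names ending in _x_at were left out there, and other marks of cross-hybridisation were not used. It also gave the genes the study discusses and the 6 members of each list with the smallest adjusted p. Added to these were every called member against its list's main direction, and the 5 largest differences each way between treatments and between days. Other genes, such as uncalled list members and further probe sets, were named after their values were seen. Alternatives were the spread from the compared groups alone, no dim probe sets, array weights, trended and robust variances, median scaling, quantile normalization, an offset of 16, a floor of 50, an adjusted p of 0.05, any probe set of a gene, the replicate number as a block and leaving out each array; keeping the control probe sets was chosen after seeing the data. The number of arrays limits the precision.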

Additional observations from a re-analysis of the deposited data

Results flagged for a closer look

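The line difference itself differed between conditions, by limma's test of the difference of differences (adjusted p under 0.005 and difference past 0.6), in 292 probe sets upward and 268 downward between BMP2 and untreated cells at d3, and in 349 upward and 230 downward between d3 and d6 with BMP2.

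Between treatments, the difference of the log2 ratios (with BMP2 minus without) was 3.38 for *Krt31*, 2.76 for *Wnt4*, 2.39 for *Spata13*, 2.38 for *Calcb* and 2.16 for *Adamts16*. It was -4.48 for *Lin7a*, -3.21 for *Car6*, -2.83 for *Spry4*, -2.60 for *Eps8* and -2.53 for *Gsta2*. Among muscle genes it was -0.64 for *Myog*, -0.78 for *Tnnt2* and -1.06 for *Actc1*. Among genes of bone it was 1.55 for *Sp7*, 0.83 for the dimmer *Vdr* probe set, 1.00 for *Fgfr3* and 1.01 for *Kazald1*. For *Npnt* it was 0.61, for *Grem1* -1.33 and for *Ereg* -1.41. Both *Grem1* and *Ereg* were also called lower at d0, before BMP2. The sizes for *Lin7a* and *Spry4* rest on C2C12-pMirn378 means under the dim limit at d3 with BMP2 and are no measured folds.

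Between days, the difference (d3 minus d6, with BMP2) was 4.37 for *Mxd3*, 3.75 for *Kif23*, 3.09 for *Dlgap5*, 2.96 for *Ticrr* and 2.76 for *Gas2l3*. It was -4.53 for *Hp*, -3.18 for *Car6*, -2.22 for *Cxcl12*, -2.09 for *Egr3* and -1.88 for *Egr2*. For the troponin *Tnnc2* it was 0.91 and for *Ereg* -1.40. The size for *Mxd3* rests on a C2C12-pMirn0 mean under the dim limit at d3 with BMP2 and is no measured fold. With 3 arrays in a group, single arrays were not tested as outliers.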

How the results depend on the processing

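The counts depended most on which arrays gave the spread. With limma on the compared groups alone, 0 probe sets were higher and 0 lower at d3 with BMP2, so that 0 members were called in each of the mitosis, DNA replication, stress, cholesterol, sarcomere and bone matrix lists, against 8321 probe sets with an unadjusted p under 0.05. At an adjusted p under 0.05 the same fit called 705 higher and 524 lower. The tests between treatments then gave 27 and 30 probe sets upward and downward, and those between days 130 and 62. With only the 22100 probe sets at or above the dim limit over all 30 arrays tested in that fit, 599 probe sets were higher and 433 lower, the count between treatments was 178 downward, DNA replication had 11 members higher and bone matrix 7. An adjusted p of 0.05 in place of 0.005 gave 1026 lower probe sets, 538 and 508 between treatments and 548 and 423 between days. A floor of 50 gave 515 upward between treatments and 350 downward between days. Under the other alternatives these counts stayed within 1.5 times those reported. Keeping the control probe sets, chosen after seeing the data, gave 728 higher and 660 lower.

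With 1 of the 6 arrays left out, 611 to 666 probe sets were higher and 547 to 633 lower, and 513 of the 729 and 415 of the 660 were called in all 6 such fits. Mitosis had 35 to 36 members higher, DNA replication 13 to 18, cholesterol synthesis 8 to 11 and bone matrix 4 to 5, and stress had 10 to 12 members lower and the sarcomere 6 to 7. Of 130 called probe sets of genes named here, 29 lost it in 1 or more of these fits. The call was lost without at least 1 array for *Bmp1*, *Cd14*, *Chrdl1*, *Ckm*, 1 *Clu* probe set, *Cxcl12*, *Depdc1b*, *Fasn*, *Foxm1*, *Hdc*, *Igf1*, *Mcm3*, *Mcm6*, *Mvk*, *Myh8*, *Mylk*, *Ndc80*, *P2rx3*, *Pag1*, *Pfkfb4*, *Rspo3*, *Scd1*, *Sesn2*, *Sgo1*, *Slc7a11*, *Smyd1*, *Tgfb1* and *Vldlr*, and the cause was not tested. For 1 *Cxcl12* probe set, *Igf1*, *Pag1* and *Rspo3* it was lost whichever array was left out. A floor of 50 ended the calls of *Chrdl1*, *Hdc*, *Myh8*, *Pag1* and *Spry4*, whose lower values lie under it. An offset of 16 ended 6, those of *Cd14*, *Fasn*, *Mcm3*, *Pag1*, *Pfkfb4* and *Smyd1*, and the compared groups alone on the 22100 brighter probe sets ended 21, among them those of *Asns*, *Psat1*, *Slc7a5*, *Idi1*, *Insig1*, *Igf2* and *Ndc80*.

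The log2 ratio changed sign only for genes that were not called. Leaving out 1 array gave -0.0279 to 0.0594 for *Grb2*, -0.0093 to 0.1901 for *Ksr1*, -0.067 to 0.0225 for *Dnajb9*, -0.0489 to 0.0813 for *Ttn*, -0.1215 to 0.0515 for *Lss* and -0.2883 to 0.0032 for *Dhcr7*, and array weights gave 0.0069 for *Lss*.

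The replicate numbers showed no clear pairing of the samples. Deviations from the group means correlated at 0.20, 0.067 and 0.0012 between same-numbered arrays of the lines, and at -0.22 to 0.18 between differently numbered ones. With 3 arrays in a group this cannot exclude a pairing. With the replicate number as a block, 726 probe sets were higher and 658 lower.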

Other observations

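Without BMP2, the mean log2 level of the 37 mitosis genes at d6, relative to C2C12-pMirn0 at d0, was -2.74, -2.88 and -2.62 on the C2C12-pMirn378 arrays, against -3.25, -3.19 and -3.20 on the C2C12-pMirn0 arrays, and the lines did not overlap.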
